A study of Homo sapiens with 6 samples.

Results

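The genes described here are PDK4 and the other regulators and catalytic subunits of the pyruvate dehydrogenase complex, in K562 cells, a human line from a chronic myeloid leukaemia. Members were the pyruvate dehydrogenase kinases PDK1, PDK2, PDK3 and PDK4, the phosphatases PDP1 and PDP2, and the subunits PDHA1 and PDHB, taken as every probe set that the platform annotation assigned to 1 of these genes alone. That gave 20 of 54675 probe sets, for 7 of the 8 genes. No probe set was assigned to PDP2 in that annotation, so PDP2 has no value. PDK4 led to this choice of genes through its difference between ATRA-treated and DMSO-treated cells, so all values of that contrast are a description and carry no test.

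The cells were nucleofected with an siRNA that the labels call RNAi8, or with a scrambled RNA, at up to 200 nM. All-trans retinoic acid (ATRA), the ligand of the retinoic acid receptors, or DMSO as control was added 24 hours later, and the labels do not give the length of exposure. There were 3 independent experiments, each with 1 siRNA array and 1 scrambled array. Experiments 1 and 3 were treated with ATRA and experiment 2 with DMSO, so that 4 arrays stood for ATRA and 2 for DMSO. All groups share the single cell line and the nucleofection, and untransfected cells were not analysed here. Each value is log2 expression of a probe set as normalized by the authors, and a signal below 6.00, the median over all probe sets, is called dim and was not shown to be above background. A probe set is called dim where its mean over the 6 arrays is below that median. Levels of different probe sets are not compared, because each probe set has its own brightness.

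The pyruvate dehydrogenase complex turns pyruvate into acetyl-CoA in mitochondria and so joins glycolysis to the tricarboxylic acid cycle. The kinases phosphorylate its alpha subunit and switch it off, and the phosphatases switch it on again. PDK4 is the kinase best known for induction by fasting, fatty acids and glucocorticoids, by way of nuclear receptors and forkhead factors, and retinoic acids are known to induce it in hepatoma cells. More PDK4 spares glucose carbon and favours the oxidation of fatty acids.

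The promoter of PDK4 is shown beside that of CYP26A1, the retinoic acid-degrading cytochrome P450 that is a textbook retinoic acid target, because these genes had the largest differences of signal with ATRA. Each line gives the 250 bases before a RefSeq start site, from build GRCh38.p14, 5′ to 3′ on the strand of the gene, with matches to the motifs searched in capitals. The PDK4 window is chr7:95596517-95596766 on the minus strand and the CYP26A1 window is chr10:93073643-93073892 on the plus strand.
PDK4: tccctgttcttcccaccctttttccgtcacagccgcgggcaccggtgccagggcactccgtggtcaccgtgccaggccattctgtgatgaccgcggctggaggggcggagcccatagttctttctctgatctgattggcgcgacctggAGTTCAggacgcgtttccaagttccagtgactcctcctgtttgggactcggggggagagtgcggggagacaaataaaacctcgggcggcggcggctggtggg
CYP26A1: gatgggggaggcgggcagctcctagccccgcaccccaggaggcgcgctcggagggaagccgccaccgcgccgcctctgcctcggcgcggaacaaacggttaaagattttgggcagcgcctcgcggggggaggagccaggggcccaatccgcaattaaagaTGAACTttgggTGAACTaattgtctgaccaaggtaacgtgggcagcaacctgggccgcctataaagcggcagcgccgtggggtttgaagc
The motifs were AGGTCA and AGTTCA and also GGTTCA, which are half-sites of nuclear receptors, together with the forkhead motif GTAAACA, each on both strands. PDK4 held 1 match, AGTTCA at -102 to -97 relative to the start site. CYP26A1 held AGTTCA on the opposite strand, read as TGAACT here, at -90 to -85 and at -79 to -74. A second CYP26A1 window, before another RefSeq start site, held no match. Those matches form a direct repeat of AGTTCA with a spacer of 5 bases, which 3 of 35116 RefSeq windows of this length held. AGTTCA by itself was in 8.80% of these windows, AGGTCA in 12.1%, GGTTCA in 7.16% and GTAAACA in 2.98%, and 25.1% held any of the 3 half-sites. The other 9 windows searched, of 6 other members, held none of the 4 motifs. PDP1 was not searched. These matches describe letters and not binding, and no match says only that the letters are not in the window.

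PDK4 signal was high in every ATRA array and dim in both DMSO arrays on the brightest of its 3 probe sets, 225207_at. With ATRA the level was 8.14 (siRNA) and 8.24 (scrambled RNA) in experiment 1 and 8.36 (siRNA) and 8.79 (scrambled RNA) in experiment 3, against 5.31 (siRNA) and 5.62 (scrambled RNA) with DMSO in experiment 2. All 4 ATRA arrays thus lay above both DMSO arrays, and the gap between the treatments was far wider than the spread of the arrays within either. Both DMSO arrays come from 1 experiment, so their spread holds no variation between DMSO experiments, and the 4 ATRA arrays come from 2 experiments. The difference in log2 signal was 2.73 in experiment 1 and 3.12 in experiment 3, a mean of 2.92, or 7.58-fold in signal. Of 54613 probe sets only 1, for CYP26A1, had a larger mean difference (5.94), while 3 had a larger one in experiment 1 alone and 2 in experiment 3 alone. A mean difference of at least 1 log2 unit upward was reached by 0.216% of probe sets (and one downward by 0.361%), and 225207_at was the 1 member among them. It was also the 1 member with at least 1 log2 unit in each of experiments 1 and 3, where 0.0275% of probe sets had that. Since the DMSO signals were dim, the difference in transcript may be larger than that in signal.

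The other PDK4 probe sets were dim in all 6 arrays and differed by much less. For 205960_at the levels were 5.07 and 4.88 in experiment 1 and 5.16 and 4.94 in experiment 3 with ATRA (siRNA, then scrambled RNA), against 4.73 and 4.83 with DMSO. For 1562321_at they were 3.97 and 4.13 in experiment 1 and 3.88 and 4.37 in experiment 3 with ATRA, against 3.64 and 3.59 with DMSO. The 4 ATRA arrays lay above both DMSO arrays on these probe sets too, with mean differences of 0.24 and 0.47. These sizes depended on the RNA. For 205960_at the difference was 0.09 in scrambled arrays alone and 0.39 in siRNA arrays alone, and for 1562321_at it was 0.65 and 0.29. The average of the 3 PDK4 probe sets differed by 1.21. At signals this low a probe set reports its transcript weakly, and whether these 2 detect PDK4 in K562 cells was not tested.

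**Figure D1:**
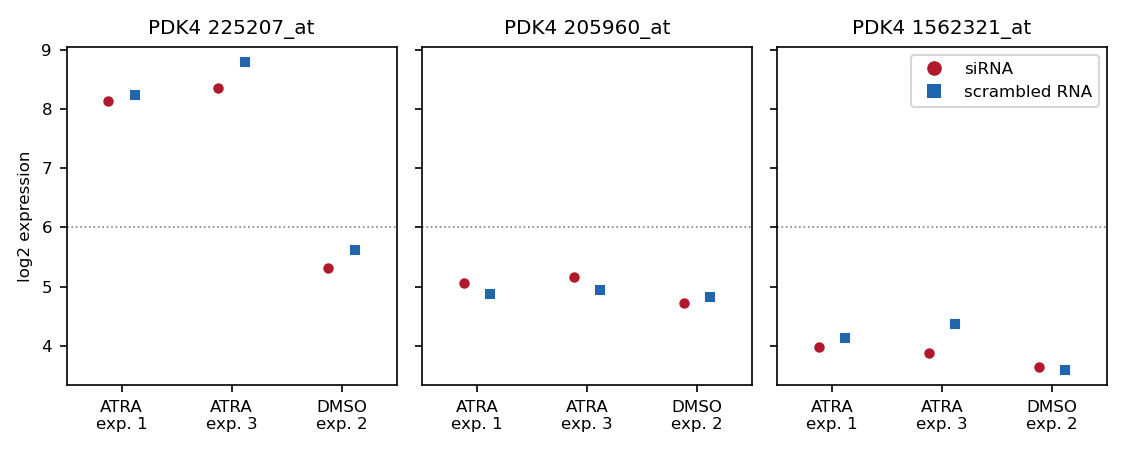
Log2 expression (y axis) of the 3 PDK4 probe sets on each of the 6 arrays, grouped on the x axis by treatment and experiment, with circles for siRNA and squares for scrambled RNA. The dotted line is the median of all probe sets (6.00). On 225207_at the 4 ATRA arrays sit between 8.14 and 8.79 and the DMSO arrays at 5.31 and 5.62, while the other probe sets stay below the line on every array.

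Experiment 3 stood apart from the other experiments over the whole array. Pearson's r over all probe sets serves here only as a description. It was 0.979 to 0.982 between the arrays of experiment 3 and the others, and 0.996 to 0.998 between experiments 1 and 2. Within an experiment r was 0.998 in experiments 1 and 2 and 0.996 in experiment 3. In its arrays the actin control probe set of the 3' end exceeded that of the 5' end by 2.98 (siRNA) and 3.36 (scrambled RNA) log2 units, where the remaining 4 arrays had gaps of 0.63 to 0.92. Differences of experiment 3 are therefore given beside those of experiment 1, and both use the same 2 DMSO arrays. On the list for erythroid cells and K562, 9 of 9 measured genes were not dim, among them HBZ (mean 12.03) and TFRC (mean 13.34). Of lymphocyte markers 4 of 7 and of stromal and epithelial markers 4 of 8 were dim, and EPCAM was bright (11.54). Of all genes 6925 of 19775 were dim, so a signal above the median does not by itself show that a cell type was present. The mean level over the erythroid list was 9.84 to 9.87 with ATRA and 10.00 to 10.03 with DMSO, that over the lymphocyte list 5.63 to 5.87 with ATRA and 5.70 to 5.86 with DMSO, and that over the stromal and epithelial list 6.70 to 6.75 with ATRA and 6.74 to 6.76 with DMSO. The part of these shifts in the results was not tested. In RNA from whole cultures, fewer cells of a type and less RNA per cell cannot be told apart.

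The kinases PDK1, PDK2 and PDK3 showed no ATRA difference near the size of that of PDK4. PDK1, the kinase induced by the hypoxia factor HIF1, had on 226452_at levels of 7.73 and 7.71 in experiment 1 and 8.26 and 8.49 in experiment 3 with ATRA, against 7.70 and 7.94 with DMSO. Only the arrays of experiment 3 were above DMSO, with differences of -0.10 in experiment 1 and 0.55 in experiment 3. Its second probe set, 206686_at, differed by -0.00 and -0.16, and the dim 239798_at by -0.09 and -0.34. The PDK1 probe sets did not share a direction in experiment 3, in which the actin gap was wide.

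PDK2, a kinase found in most tissues, had on 202590_s_at levels of 6.64 and 6.49 in experiment 1 and 6.64 and 6.65 in experiment 3 with ATRA, against 6.49 and 6.82 with DMSO. The ATRA arrays lay inside the DMSO range or at its lower edge, and the mean difference was -0.05. On 213724_s_at the mean difference was -0.15, with -0.01 in experiment 1 and -0.29 in experiment 3. PDK3, a kinase encoded on the X chromosome, had 228959_at at 6.43 and 6.45 in experiment 1 and 6.87 and 6.91 in experiment 3 with ATRA, against 6.36 and 6.32 with DMSO. All 4 ATRA arrays were above both DMSO arrays, by 0.09 in experiment 1 and 0.55 in experiment 3. On 221957_at the differences ran the other way in size, at 0.22 in experiment 1 and 0.04 in experiment 3. The remaining 3 PDK3 probe sets were dim, with mean differences of 0.06, 0.04 and -0.14.

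PDP1, the calcium-stimulated phosphatase that reactivates the complex, had a mean below the median signal on both of its probe sets. On 222572_at the levels were 5.66 and 5.73 in experiment 1 and 6.17 and 5.94 in experiment 3 with ATRA, against 5.85 and 5.78 with DMSO. The ATRA experiments fell on opposite sides of DMSO, at -0.12 and 0.24. On 218273_s_at both were below it, at -0.09 and -0.19.

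The subunits of the dehydrogenase itself were above the median signal on every probe set and array. PDHA1, the alpha subunit that the kinases phosphorylate, had on 200980_s_at levels of 10.50 and 10.61 in experiment 1 and 10.59 and 10.55 in experiment 3 with ATRA, against 10.72 and 10.75 with DMSO. The ATRA arrays were all lower than the DMSO arrays, by a mean of -0.17. On 1555864_s_at the mean difference was -0.06. A less bright probe set, 200979_at, pointed the other way, with 7.25 and 7.20 in experiment 1 and 7.91 and 7.58 in experiment 3 with ATRA, against 6.98 and 7.13 with DMSO. The PDHA1 probe sets thus disagreed in sign. PDHB, the beta subunit, had on 211023_at 10.93 and 10.85 in experiment 1 and 10.94 and 10.85 in experiment 3 with ATRA, against 10.93 and 10.91 with DMSO. The groups overlapped, and the mean difference was -0.03. On 208911_s_at the ATRA arrays were lower in both experiments, by -0.05 and -0.37.

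**Figure D2:**
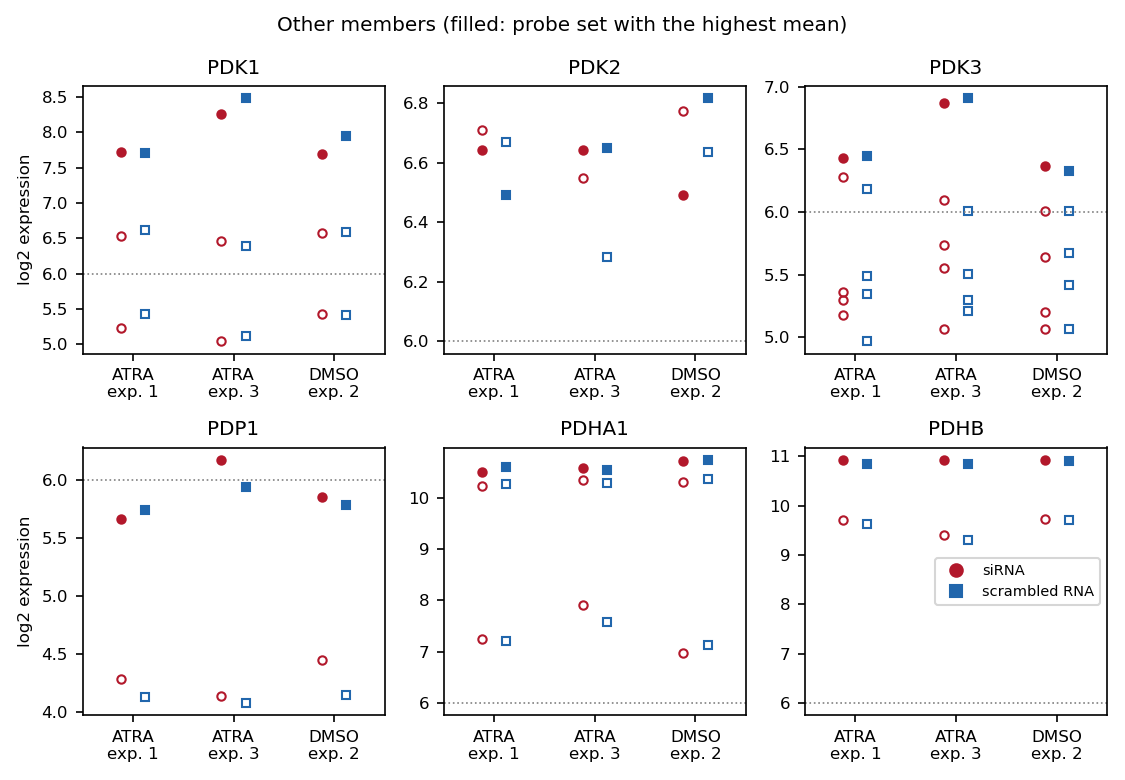
Log2 expression (y axes, on a scale of their own in each panel) of all probe sets of the 6 other measured members, by treatment and experiment on the x axes, with circles for siRNA and squares for scrambled RNA, filled for the probe set with the highest mean. The dotted line, where in range, is the median of all probe sets (6.00). The PDHB probe set 211023_at stays between 10.85 and 10.94, and the PDK1 probe set 226452_at is highest in experiment 3.

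Over the 20 member probe sets, 5 had all 4 ATRA arrays above both DMSO arrays, the 3 of PDK4 among them, and 2 had all 4 below. Among all probe sets the shares were 11.1% and 11.8%. Without experiment 3, 6 of the 20 had both ATRA arrays above both DMSO arrays and 5 had both below, where 19.5% and 19.8% of all probe sets did. Because PDK4 was chosen on this contrast, nothing is read from these counts. The 17 probe sets of members other than PDK4 had mean differences of -0.21 to 0.43, with a median of -0.05, where the median of all probe sets was -0.01. In experiment 1 their range was -0.24 to 0.22 and in experiment 3 it was -0.37 to 0.69. The ends of the range in experiment 3 were 208911_s_at of PDHB and 200979_at of PDHA1. In limma on the 3 experiment means, 0 of 54613 probe sets passed an adjusted p of 0.05 for ATRA against DMSO (0% called), and 456 had an unadjusted p below 0.05 (0.835%).

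Genes whose pattern over the 6 arrays was most like that of PDK4 (225207_at) were sought among 775 genes that ranged by at least 1 log2 unit and were not dim. By Pearson correlation the 5 closest were CYP26A1 (r = 0.989), DHRS3 (0.981), SLC2A12 (0.979), NMU (0.978) and ARAP3 (0.978). CYP26A1 had 11.46 and 11.21 in experiment 1 and 12.21 and 11.85 in experiment 3 with ATRA (siRNA, then scrambled RNA), against 5.75 and 5.72 with DMSO. DHRS3, a retinaldehyde reductase, had 9.34, 9.22, 9.66 and 9.57 with ATRA in the same order, against 8.12 and 8.30 with DMSO. SLC2A12, a glucose transporter, had 7.56, 7.54, 7.76 and 7.64 with ATRA, against 6.77 and 6.70 with DMSO. In all of them every ATRA array was above both DMSO arrays, which a choice by likeness to PDK4 favours. The step was smaller than that of PDK4 except in CYP26A1, whose DMSO arrays were dim. The neuropeptide gene NMU differed by a mean of 1.00 and ARAP3, a GTPase-activating protein, by 1.33. The 6 points of each correlation are 3 pairs of arrays, and mainly 1 step between treatments, so r is a description only. Of the other member probe sets, the dim PDK4 probe set 1562321_at had the highest r with 225207_at (0.87) and the PDHA1 probe set 200980_s_at the lowest (-0.89). The PDHA1 probe sets had no common sign, with r = 0.70 for 200979_at and r = -0.51 for 1555864_s_at.

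**Figure D3:**
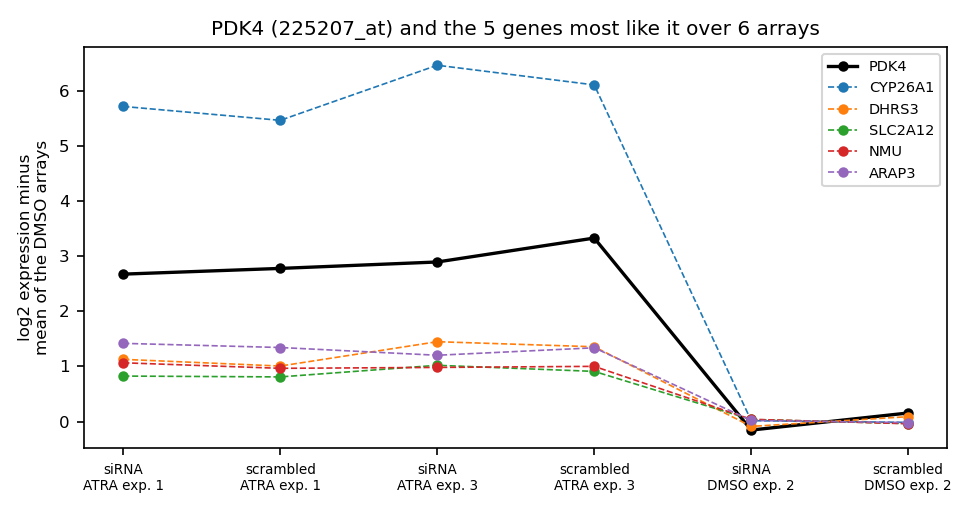
Log2 expression minus the mean of the DMSO arrays (y axis) for PDK4 and the 5 genes most like it, on the 6 arrays along the x axis. All of them step up in the 4 ATRA arrays, CYP26A1 by a mean of 5.94, PDK4 by 2.92 and the others by 0.89 to 1.33.

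Whether the siRNA altered the members was asked by comparing siRNA with scrambled RNA, a contrast that did not choose them. PRAME, the gene of the series title and a known repressor of retinoic acid receptor signalling, had 12.13, 12.14 and 12.10 with the siRNA in experiments 1 to 3, against 13.00, 12.99 and 12.70 with scrambled RNA. Its mean difference of -0.78 had an adjusted p = 1 in limma and an adjusted p = 0.0435 with the experiment as a block. PDK4 had negative differences in each experiment on 225207_at, of -0.10 in experiment 1, -0.31 in experiment 2 and -0.43 in experiment 3, a mean of -0.28, which is 0.822 of the scrambled signal. It did not pass the test over all probe sets, in limma with treatment as a covariate (SE 0.17, 95% interval -0.72 to 0.15, unadjusted p = 0.155, adjusted p = 1). With each siRNA array set against the scrambled array of its own experiment, as a replicate block, the SE was 0.08, the 95% interval -0.46 to -0.11, the unadjusted p = 0.00553 and the adjusted p = 0.872 in limma, which missed the threshold as well. In experiment 2 both arrays were dim for PDK4, and the difference was -0.13 without the scrambled array of experiment 3 and -0.44 without that of experiment 1. The dim PDK4 probe sets had no common direction, with mean differences of 0.10 for 205960_at and -0.20 for 1562321_at.

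None of the other members passed either. In limma without the block, 0 of 20 member probe sets had an adjusted p below 0.05, as had 0 of all 54613 (0% called), and 0 of 20 had an unadjusted p below 0.05, where 1.20% of all probe sets had one. With the block 0 of 20 passed and 1 of 54613 did (0.00183%), PRAME, and the unadjusted p was below 0.05 for 1 of 20, the PDK4 probe set, where 5.27% of all probe sets had one. Member differences ran from -0.28 to 0.17, with a median of 0.01, against a median of 0.00 over all probe sets. The 225207_at probe set was the 1 member lower in all 3 experiments, where 11.3% of all probe sets were, and 4 members were higher in all 3, where 12.3% were. These 4 were the PDK2 probe set 213724_s_at (0.04, 0.14 and 0.27), the dim PDP1 probe set 218273_s_at (0.16, 0.30 and 0.06) and both PDHB probe sets. For PDHB the mean differences were 0.06 on 211023_at, with a 95% interval of -0.14 to 0.26, and 0.07 on 208911_s_at, with one of -0.30 to 0.44. PDK1 on 226452_at differed by 0.02, -0.25 and -0.22 (95% interval of the mean -0.80 to 0.50), and PDHA1 on 200980_s_at by -0.11, -0.03 and 0.04 (-0.25 to 0.19). Without the block, the intervals of PDK1 on 226452_at and of PDHB on 208911_s_at included the -0.28 measured for PDK4. Those of PDHB on 211023_at and of PDHA1 on 200980_s_at did not. Other probe sets of these genes differed, as PDHA1 200979_at (-0.49 to 0.63) included it and PDK1 206686_at (-0.24 to 0.23) did not. With the block, PDHB 208911_s_at (-0.05 to 0.19) did not include it. The PDK4 value itself had an interval of -0.72 to 0.15, so nothing is read from this comparison.

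**Figure D4:**
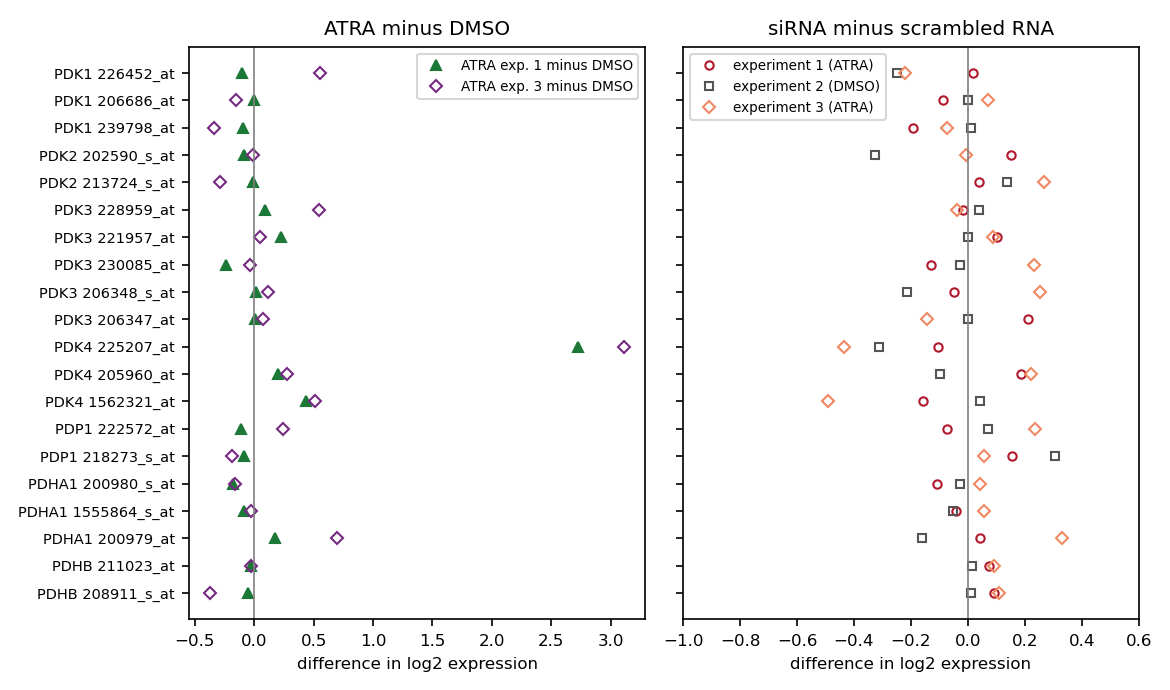
Differences in log2 expression (x axes) for each of the 20 member probe sets (rows), on the left for ATRA minus DMSO in experiments 1 and 3, and on the right for siRNA minus scrambled RNA in experiments 1 to 3. On the left the PDK4 probe set 225207_at lies at 2.73 and 3.12 while all others lie between -0.37 and 0.69. On the right it lies at -0.10, -0.31 and -0.43.

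Whether the siRNA acted differently under ATRA than under DMSO was asked by the difference of its effects, experiments 1 and 3 minus experiment 2. For PDK4 on 225207_at that difference was 0.04, with a 95% interval of -1.17 to 1.25 in limma on 4 groups and of -0.39 to 0.47 with the block. The ATRA difference was 2.94 in siRNA arrays alone and 2.90 in scrambled arrays alone. Both DMSO signals in these differences, 5.31 (siRNA) and 5.62 (scrambled RNA), were dim, and these values do not show that the siRNA acted alike under ATRA and DMSO. The member differences of effect ran from -0.37, for the dim PDK4 probe set 1562321_at, to 0.40, for the PDK2 probe set 202590_s_at. That PDK2 probe set moved by 0.15 and -0.01 with the siRNA under ATRA and by -0.33 under DMSO (limma with the block, unadjusted p = 0.0405, adjusted p = 1). No member passed, and 0 of 54613 probe sets did with or without the block (0% called), while the unadjusted p was below 0.05 for 1.29% of all probe sets without the block and for 2.80% with it. Of the 20 member probe sets 0 and 1 were among these. The DMSO side of this comparison is 1 pair of arrays.

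Around the complex, the other subunits, the enzymes that share its parts and the routes into and out of it were described from 8 lists, with 1 probe set per gene. Of 19775 genes, 13.5% had all 4 ATRA arrays above both DMSO arrays and 13.2% had all 4 below, and without experiment 3 the shares were 20.4% and 22.6%. Of the 6 measured genes of the complex core and its lipoate supply, 3 had all ATRA arrays above DMSO and 1 had all below. Without experiment 3 the counts were also 3 and 1. The 1 below was PDHA2, which was dim (-0.12 in experiment 1 and -0.26 in experiment 3). Those above were the acetyltransferase DLAT, the dihydrolipoamide dehydrogenase DLD and PDHX, which tethers DLD to the core. DLAT had 10.51 and 10.35 in experiment 1 and 10.92 and 10.74 in experiment 3 with ATRA, against 10.15 and 10.24 with DMSO. DLD was higher by 0.12 and 0.46 in experiments 1 and 3, PDHX by 0.15 and 0.49. Those differences were larger in experiment 3, as was the drop of LIAS, the lipoyl synthase (-0.03 and -1.22).

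Among mitochondrial fatty acid oxidation genes, 8 of 16 had all 4 ATRA arrays above both DMSO arrays and 1 had all 4 below, and without experiment 3 it was 10 above and 2 below. Of all genes 13.5% were above and 13.2% below, and 20.4% and 22.6% without experiment 3. The list's median difference was 0.20 (0.06 in experiment 1 and 0.26 in experiment 3), against -0.01 over all genes. Its lowest mean difference was that of CPT1C (-0.26), with 0.04 in experiment 1 and -0.55 in experiment 3. ACSL1, an acyl-CoA synthetase, had 10.31 and 10.35 in experiment 1 and 10.13 and 10.17 in experiment 3 with ATRA, against 9.56 and 9.67 with DMSO. CPT1A, the carnitine palmitoyltransferase that gates fatty acid entry into mitochondria, had 8.20 and 8.06 in experiment 1 and 8.42 and 8.74 in experiment 3 with ATRA, against 7.66 and 7.82 with DMSO. The others above DMSO throughout were CPT2, SLC25A20, ACADM, HADHB, HADH and ETFDH, with differences of 0.05 to 0.24 in experiment 1 and 0.22 to 0.62 in experiment 3. These differences carry no test, because limma on the experiment means, with 1 DMSO experiment, could not decide them.

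Of 11 measured classical targets of the PPAR nuclear receptors, 6 were dim. All 4 ATRA arrays were above DMSO for 1 of the 11 and below it for 1, shares near those of all genes, and without experiment 3 the counts were 1 and 3. The list's median difference was -0.07. The gene above was PLIN2, which coats lipid droplets, at 10.25 and 10.31 in experiment 1 and 9.79 and 9.74 in experiment 3 with ATRA, against 9.63 and 9.66 with DMSO. Of 16 nuclear receptors, cofactors and forkhead factors linked to PDK4, 4 were above and 2 below, and 6 and 3 without experiment 3. FOXO1, a forkhead factor, had 6.69 and 6.73 in experiment 1 and 7.20 and 7.20 in experiment 3 with ATRA, against 6.15 and 6.36 with DMSO. PPARD, the delta PPAR, was higher by 0.18 and 0.51.

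Pyruvate entry and other pyruvate enzymes had 1 of 11 above and 2 below, and 1 and 4 without experiment 3, with the malic enzyme ME2 higher by 0.16 and 0.76 in experiments 1 and 3 and MPC2, a subunit of the mitochondrial pyruvate carrier, lower (-0.20 and -0.80). Tricarboxylic acid cycle enzymes had 2 of 10 above and 3 below, and 2 and 4 without experiment 3, with citrate synthase CS at 0.13 and 0.67 and IDH3G, an isocitrate dehydrogenase subunit, at -0.16 and -1.09. The related 2-oxoacid dehydrogenases had 0 of 8 above and 1 below, which was BCKDHA (-0.17 and -0.22), and 2 and 1 without experiment 3. HIF1 regulators and targets had 4 of 19 above and 1 below, and 6 and 5 without experiment 3, with the prolyl hydroxylase EGLN1 at 0.18 and 0.87. In these lists the differences of experiment 3 were several times those of experiment 1 for each of the genes named except BCKDHA, and the wide actin gap went with that experiment, whose part in these differences was not tested.

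With the siRNA, 0 genes of the 8 lists passed in limma with or without the block. An unadjusted p below 0.05 was reached by 0 of them without the block, against 0.986% of all genes, and with it by CPT1C (-0.21) and by the glucocorticoid receptor NR3C1 (0.15), against 4.94% of all genes. The medians of the lists ran from -0.01 to 0.05, against 0.01 over all genes.

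**Figure D5:**
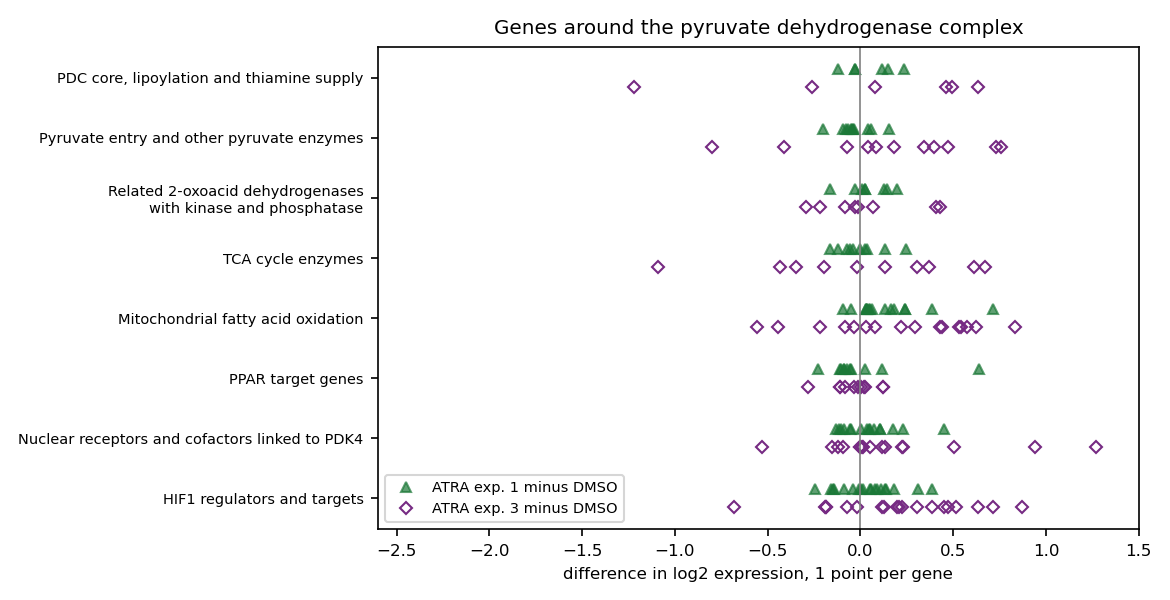
ATRA minus DMSO in log2 expression (x axis) for the measured genes of the 8 lists (rows), with triangles for experiment 1 and diamonds for experiment 3. The diamonds spread more widely than the triangles. Medians are not drawn, and those of the fatty acid oxidation row are 0.06 in experiment 1 and 0.26 in experiment 3.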

How the data were processed

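TRIzol-extracted RNA of 6 samples was labelled from the 3' end and hybridised to Affymetrix U133 Plus 2.0 arrays, per the labels' protocols and the series' design text. The deposited values are log2 expression after RMA, per the submitters' processing notes, and the design text names the BRB software for this step without a version. From 54675 probe sets, 62 controls were left out of all tests. The platform annotation paired 41091 with 1 gene, 1801 with several and did not list 11721, and symbols were updated by gene identifier, which matched 41037. In lists, a gene is the probe set with the highest mean. No 2 arrays were identical, and the small number of arrays limits precision.

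Tests used limma 3.58.1 in R 4.3.3 (eBayes with an intensity trend) over all non-control probe sets, with Benjamini-Hochberg adjustment and a threshold of 0.05, and were tested on simulated data. Residual degrees of freedom were 3 for the siRNA, 2 with the block, 2 and 1 for the difference of effects, and 1 for ATRA. In the difference of effects both DMSO groups are single arrays, taken to vary as much as the ATRA groups. The labels mark the replicate numbers as independent experiments, and the arrays are paired by these labels. Deviations from group means correlated at 0.703, 0.772 and 0.879 within experiments 1, 2 and 3. Mismatched arrays of experiments 1 and 2 correlated at 0.530 and 0.594, and mismatches with experiment 3 at -0.785 to -0.693. These correlations alone do not establish the pairing. With the block, the siRNA p-values measure the spread of the paired differences between these experiments. Without it the arrays are treated as independent, and shifts in level between the ATRA experiments enter that spread.

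The members, lists and tests were chosen with earlier results of these data known. Named were all member probe sets, CYP26A1, PRAME, the 5 genes most like PDK4 and, per list, the 2 smallest siRNA p-values and the 2 largest ATRA differences, of which the text gives a selection. Other genes of the lists were chosen after their values were seen.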

Additional observations from a re-analysis of the deposited data

Results flagged for a closer look

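In the PDK2 probe set 202590_s_at, the scrambled ATRA array of experiment 1 stood apart from the other ATRA arrays, at 6.49 against 6.64 to 6.65. Of the 20 member probe sets this was the 1 in which 1 of the 4 ATRA arrays lay so far from the rest. Chance alone marks about 1 in 20 groups this way, and the 4 arrays come from 2 experiments.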

How the results depend on the processing

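The ATRA difference of PDK4 on 225207_at ran from 2.73 to 3.12 over experiment 1 or 3 alone, siRNA or scrambled arrays alone, quantile normalization and median centring, and was 1.21 when all PDK4 probe sets were averaged, which adds 2 dim ones. Its siRNA difference stayed negative in every setting run, from -0.44 without the scrambled array of experiment 1 to -0.13 without that of experiment 3, with adjusted p from 0.866 to 1. No member passed in any of 378 alternatives over both siRNA tests. Over all probe sets, the siRNA count was 0 in limma, 1 (PRAME) with the replicate block, and 0 to 1 when an array or an experiment was left out. Median centring turned the difference of siRNA effects to 0.0078 for PDK1 206686_at and to 0.011 for PDHA1 200980_s_at, both close to 0. Leaving out an array or an experiment also turned the sign of siRNA differences that had missed the test. Those ranges were -0.39 to 0.057, -0.073 to 0.062 and -0.16 to 0.016 for PDK1 (226452_at, 206686_at and 239798_at) and -0.17 to 0.074 for PDK2 202590_s_at. For PDK3 they were -0.13 to 0.13, -0.092 to 0.12, -0.13 to 0.10 and -0.072 to 0.11 (228959_at, 230085_at, 206348_s_at and 206347_at). For PDP1 222572_at the range was -0.069 to 0.22, for PDHA1 -0.069 to 0.0078, -0.052 to 0.015 and -0.15 to 0.23 (200980_s_at, 1555864_s_at and 200979_at), and for PDHB 208911_s_at -0.032 to 0.16. The cause was not tested. Small ATRA differences also depended on the RNA. From scrambled arrays alone to siRNA arrays alone the sign changed for PDK2 202590_s_at (-0.25 and 0.15), PDK3 206348_s_at (-0.09 and 0.22) and PDHB 211023_at (-0.06 and 0.0037). The counts without experiment 3 were chosen after seeing the data. With 1 DMSO experiment and 2 ATRA experiments, none of them holding both treatments, treatment and experiment cannot be told apart. This holds for the large difference of PDK4 as for the small ones.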

Other observations

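PDPR, the regulatory subunit of the pyruvate dehydrogenase phosphatase and no member here, had bright probe sets that split in experiment 3. With ATRA, 224904_at differed from DMSO by 0.07 in experiment 1 and 0.59 in experiment 3, while 224902_at differed by 0.08 and -0.59. The third, dim probe set differed by 0.08 and 0.23. PPARGC1B, a coactivator of nuclear receptors, differed by -0.10 in experiment 1 and 1.27 in experiment 3. These genes were chosen after their values were seen.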
